A study of Arabidopsis thaliana with 6 samples.

Results

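The comparison described here set leaves collected 2.5 h after spraying with distilled water against leaves collected 1 h after the same spray. It used 3 of the 6 arrays of the series, 1 at 2.5 h (experiment II) and 2 at 1 h (experiments IA and IB, biological repetitions), and none of the arrays of leaves sprayed with Tween 20, a non-ionic detergent. The plants were Arabidopsis thaliana of the Col-0 ecotype, 28 days old, grown under sterile conditions on sucrose-containing agar medium in 0.5 L jars with 8 h of light and 16 h of darkness. Each experiment used 33 plants, and each array carried leaf RNA pooled from 3 extracts, so that the spread between extracts is hidden. All experiments took place in the morning, and the clock time 8.30 h was stated in the labels of IB. Because 2.5 h leaves came from experiment II alone and 1 h leaves from experiments IA and IB, time after spraying and experiment cannot be told apart. The treatment text of the IA labels names 2.5 h, against the title of the same sample and the design text, and the titles were followed.

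Heat shock proteins are molecular chaperones that bind unfolded proteins and keep them from aggregating. Small heat shock proteins hold such clients, HSP70 refolds them with the help of J-domain proteins and nucleotide exchange factors such as Fes1, and Hop proteins pass clients from HSP70 to HSP90. Xyloglucan endotransglucosylase/hydrolases (XTH) cut and rejoin the xyloglucan of growing cell walls, and expansins loosen those walls. In Arabidopsis the touch genes, which include calmodulin-like proteins and an XTH, were first found as transcripts that accumulate after plants are sprayed with water.

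The array table held 22746 probe sets beside 64 controls, and 14486 of them reached the 40th percentile of the signal on at least 1 water array, called bright here. Signals are in arbitrary units on a linear scale, and the median signal of an array was 40.1 units at 2.5 h and 38.7 (IA) and 36.7 (IB) units at 1 h. Among the 12798 probe sets bright on all 3 water arrays, 7809 (61%) lay within 1.5-fold between their highest and lowest signal, and 1436 (11.2%) were at least 2-fold apart. The 2.5 h array differed 2-fold from IA for 349 probe sets (2.47% of 14115) and from IB for 976 (6.83% of 14289), whereas IA and IB differed from each other for 1015 (7.12% of 14256), of which 440 (3.09%) were higher in IA and 575 (4.03%) were lower in IA. The array at 2.5 h was therefore nearer to IA than the repetitions were to each other. The log2 signals of all probe sets correlated at 0.966 between II and IA, at 0.947 between II and IB and at 0.950 between IA and IB. Among control probe sets the 3' to 5' signal ratio of actin was 16.0 at 2.5 h and 17.6 (IA) and 7.66 (IB) at 1 h, that of GAPDH was 1.45 at 2.5 h and 1.43 and 0.956 at 1 h, and that of ubiquitin was 3.26 at 2.5 h and 1.89 and 2.0 at 1 h. The actin and GAPDH ratios set IB apart and the ubiquitin ratio set II apart, and their part in the differences below was not tested.

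The leaf identity of the samples was checked on marker genes, of which few had a named probe set. RCA, rubisco activase, gave 3844.3 units at 2.5 h and 3601.3 and 4176.4 units at 1 h, and PRK, phosphoribulokinase of the Calvin cycle, gave 3143.4 units at 2.5 h and 2496.7 and 2730.6 units at 1 h. These were the 2 leaf markers measured of 12. Of 15 root markers 2 were measured, and their summed signal was 852.9 units at 2.5 h and 1023.6 and 1136.4 units at 1 h. Nearly all of it came from PYK10, a beta-glucosidase known from roots, which was above the 95th percentile on all 3 arrays. The root hair expansin EXPA7 was below the 40th percentile on all 3 arrays. These 2 root markers thus pointed different ways, and the presence of root tissue was not tested. The 1 floral marker measured of 11, AMS, gave 7.1 units at 2.5 h and 4.8 and 5.8 units at 1 h, also below that percentile. Guard cell markers (2 of 8 measured) summed to 69.8 units at 2.5 h and 92.4 and 52.5 units at 1 h, SWEET11, the 1 vascular marker measured of 10, gave 688.8 units at 2.5 h and 803.7 and 520.1 units at 1 h, and none of 9 epidermis markers had a named probe set.

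Transcripts that differed from both 1 h arrays in the same direction were few. With signals below the 40th percentile of their own array raised to it, 25 probe sets were at least 2-fold higher at 2.5 h than on each 1 h array (0.173% of 14486) and 68 were at least 2-fold lower (0.469% of 14486). The 25 had a median log2 difference of 1.37 (range 1.09 to 2.46), and 11 of them had 1 gene name. The 68 had a median of -1.59 (range -3.18 to -1.06), and 41 had 1 gene name. The median over all bright probe sets was 0.0606. The difference from IA and the difference from IB share the 2.5 h array, so a chance deviation of that array would enter both. In bulk leaf RNA, fewer cells of a type and less RNA per cell cannot be told apart.

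**Figure D1:**
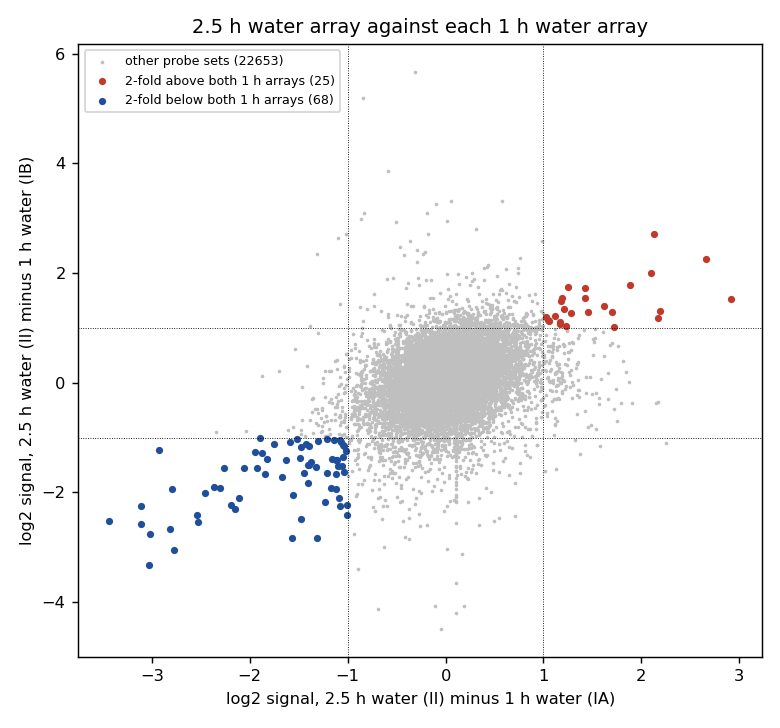
Each point is 1 probe set, with the log2 difference of the 2.5 h water array from the 1 h array IA on the horizontal axis and from the 1 h array IB on the vertical axis, and dotted lines at 2-fold. The 25 probe sets at least 2-fold above both 1 h arrays are red at the upper right, the 68 at least 2-fold below both are blue at the lower left, and the grey cloud is taller than wide because IB lay farther from the 2.5 h array than IA did.

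No probe set passed the moderated test at the filter used here, although 6 passed on the lower side with a stricter filter at the 60th percentile (smallest adjusted p = 0.0451, limma). In limma, fitted on the 3 water arrays with the lone 2.5 h array assumed to vary like the 1 h arrays, 0 of 13648 probe sets were higher and 0 were lower after Benjamini-Hochberg adjustment at 0.05, which is 0.0% in each direction. The smallest adjusted p was 0.0782. The fit used the same 3 arrays as the 2-fold rule, so how the members fared in it is no separate support for them. The members are therefore described below by their signals on the 3 arrays and by a mean log2 difference with its SD over the 2 arrays at 1 h.

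Chaperone transcripts made up the largest named group on the lower side. The lists of small heat shock proteins, HSP70 and related chaperones, co-chaperones and heat shock factors were written after values had been seen, so their counts are a description and no evidence of direction. Of their 29 measured members 27 were bright. At least 2-fold below both 1 h arrays were 14 of these (51.9%), against 0.469% of all bright probe sets. At least 2-fold above both were 0, and the median log2 difference was -1.08. In all, 20 of the 27 lay below both 1 h arrays at any size, against 24.3% of all bright probe sets. Above both at any size were 2 of the 27, both co-chaperones, and 5306 of the 14486 bright probe sets. The counts at any size were made with dim signals raised to floors of 23.8 units at 2.5 h and 22.1 and 20.6 units at 1 h. The higher floor at 2.5 h can add to the counts above both and take from those below both. None of the 14 listed heat shock factors, which switch these genes on, had a named probe set. For 12 of the 14 lower members the IA signal was above the IB signal, and the median log2 difference was -1.91 against IA and -1.45 against IB. Among the 54 other probe sets 2-fold below both, IA was above IB for 19, with medians of -1.40 and -1.66.

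Small heat shock proteins had 10 measured members, of which 9 were bright (median log2 difference of the bright members -1.60). Of the 9, 5 were at least 2-fold below both 1 h arrays, against 0.469% of all bright probe sets. AT5G51440, the mitochondrial HSP23.5, gave 75.3 units at 2.5 h and 439.0 and 402.7 units at 1 h, a mean log2 difference of -2.48 ± 0.09 (SD, n = 2; limma adjusted p = 0.105). AT2G29500, a cytosolic class I protein, gave 137.5 units at 2.5 h and 662.4 and 403.8 units at 1 h, or -1.91 ± 0.50. For both genes the repetitions at 1 h lay far above the 2.5 h signal, and for AT2G29500 they also lay apart from each other. AT5G37670, HSP15.7, gave 23.3 units at 2.5 h, just below the 40th percentile of 23.8 units, and 99.2 and 70.1 units at 1 h, so it was at least 3.50-fold lower. AT1G54050 gave 101.9 units at 2.5 h and 391.7 and 245.5 units at 1 h. AT2G19310, of the same family, gave 168.9 units at 2.5 h and 596.6 and 440.8 units at 1 h. In each of the 5 the 2.5 h signal lay below both 1 h signals by more, on the log2 scale, than the 1 h signals differed from each other. The 2-fold rule that chose the 5 on these same values favours such a gap. AT1G53540, HSP17.6C, behaved differently, with 53.9 units at 2.5 h and 197.7 units in IA but 49.8 units in IB, so its difference rested on IA. AT4G21870 (322.3 units at 2.5 h and 277.1 and 511.0 units at 1 h) lay between the 1 h arrays.

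The 3 measured members of the larger chaperone families were all below both 1 h arrays, and 1 was 2-fold below (0.469% of all bright probe sets were). AT3G09440, a cytosolic HSP70, was abundant and had closely agreeing repetitions, with 989.4 units at 2.5 h and 2073.1 and 2102.5 units at 1 h (-1.08 ± 0.01). Hsp70-2 gave 181.4 units at 2.5 h and 457.8 and 254.4 units at 1 h, and AT1G11660, an HSP70-like protein, gave 88.1 units at 2.5 h and 97.8 and 98.3 units at 1 h. The last of these differed from its 1 h signals by little, so the family was not uniform.

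Co-chaperones had 16 measured members, of which 15 were bright (median log2 difference -1.19). Of the 15, 8 were at least 2-fold below both 1 h arrays, against 0.469% of all bright probe sets. AT2G20560, a J-domain protein that delivers clients to HSP70, gave 50.0 units at 2.5 h and 352.9 and 317.2 units at 1 h, a mean log2 difference of -2.74 ± 0.11 (6.69-fold lower; limma adjusted p = 0.0786). Hop3, which bridges HSP70 and HSP90, gave 44.9 units at 2.5 h and 386.8 and 212.8 units at 1 h (-2.68 ± 0.61; limma adjusted p = 0.105). AT5G48570, the peptidyl-prolyl isomerase ROF2, gave 238.6 units at 2.5 h and 1651.1 and 917.2 units at 1 h (-2.37 ± 0.60). These 3 had the largest differences among the chaperone genes together with AT5G51440. Fes1A, an exchange factor of HSP70, gave 165.7 units at 2.5 h and 607.0 and 403.9 units at 1 h. SGT1A, a partner of HSP90 in disease resistance signalling, gave 172.0 units at 2.5 h and 456.0 and 489.9 units at 1 h. AT3G12050, with the domain of the HSP90 activator Aha1, gave 317.2 units at 2.5 h and 784.3 and 665.8 units at 1 h. The other 2 were the J-domain protein AT3G14200 (64.3 units at 2.5 h and 180.0 and 165.9 units at 1 h) and the Hikeshi-like protein AT1G66080 (32.0 units at 2.5 h and 86.2 and 69.5 units at 1 h). AT1G30070, which carries an SGS domain as SGT1 does but stood on none of the lists, gave 94.4 units at 2.5 h and 358.4 and 279.2 units at 1 h.

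Close relatives within the co-chaperones had different values. Hop1 gave 108.8 units at 2.5 h and 102.5 and 71.2 units at 1 h, a mean log2 difference of 0.35 ± 0.37. Hop2 gave 264.3 units at 2.5 h and 575.3 and 318.5 units at 1 h, or -0.70 ± 0.60. Of the 3 Hop genes, Hop3 thus had the largest difference and the lowest 2.5 h signal, although signals of different probe sets are not on a common scale. Fes1C gave 35.8 units at 2.5 h and 25.3 and 41.2 units at 1 h, inside the range of the repetitions, where Fes1A did not lie.

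**Figure D2:**
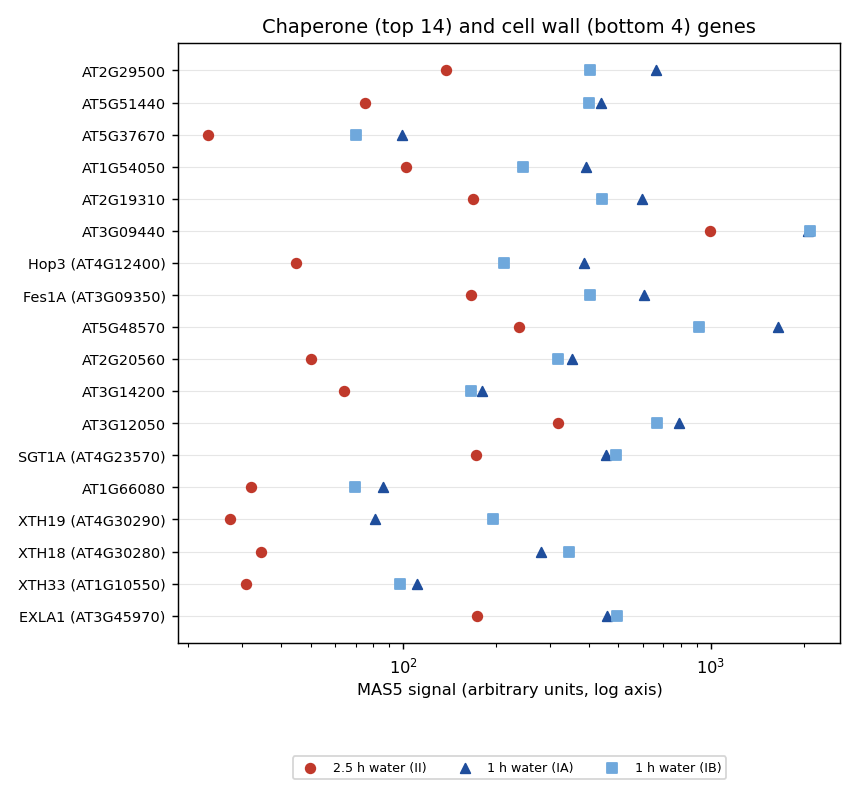
MAS5 signal on a log axis for 14 chaperone and 4 cell wall genes that were at least 2-fold below both 1 h arrays, with the 2.5 h water array (II) as red circles, the 1 h array IA as dark blue triangles and the 1 h array IB as light blue squares. Every red circle lies left of both blue symbols, the widest gap is that of XTH18 (34.5 units at 2.5 h and 281.2 and 346.5 units at 1 h), and IA exceeds IB for 12 of the 14 chaperone genes.

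Cell wall enzymes gave the largest single difference. XTH18 gave 34.5 units at 2.5 h and 281.2 and 346.5 units at 1 h, a mean log2 difference of -3.18 ± 0.21 (9.05-fold lower, SD, n = 2; limma estimate -3.18 ± 0.44 SE, adjusted p = 0.0782). XTH19, its neighbour on chromosome 4, gave 27.3 units at 2.5 h and 81.1 and 195.7 units at 1 h (-2.21 ± 0.90). XTH33, a membrane-anchored XTH, gave 30.9 units at 2.5 h and 110.6 and 97.9 units at 1 h (-1.75 ± 0.12). XTH18 and XTH19 were the 1 adjacent pair among the named nuclear members. All 3 XTH genes were near the 40th percentile of 23.8 units at 2.5 h and well above it at 1 h. XTH18 and XTH19 are similar in sequence, and how far their probe sets share signal is not known from the files. Of the 10 measured XTH genes 6 were bright, and the median log2 difference of the 6 was -1.28. Of the 6, 3 were at least 2-fold below both 1 h arrays, against 0.469% of all bright probe sets. XTH16 gave 131.3 units at 2.5 h and 256.1 and 204.0 units at 1 h. XTH32 gave 551.7 units at 2.5 h and 596.4 and 692.8 units at 1 h, and EXGT-A3, with 526.5 units at 2.5 h and 415.5 and 1015.0 units at 1 h, lay between the repetitions.

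Expansins were measured in greater number than the XTH genes. Of 19 measured members 11 were bright, 1 was at least 2-fold below both 1 h arrays and 0 were at least 2-fold above. Over all bright probe sets these shares were 0.469% and 0.173%. With dim signals raised, 6 of the 11 lay above both 1 h arrays at any size and 2 below both. Only 5 of the 11 were bright on all 3 arrays, and the median log2 difference of 0.158 over the 11 lies within the difference between the arrays' floors. The 1 at least 2-fold below was EXLA1, an expansin-like A protein, with 173.8 units at 2.5 h and 458.2 and 494.6 units at 1 h (-1.45 ± 0.08). Its relative EXLA2 gave 36.4 units at 2.5 h and 60.5 and 73.1 units at 1 h. EXPA15, an alpha-expansin, lay the other way, with 123.0 units at 2.5 h and 65.5 and 56.2 units at 1 h (1.02 ± 0.16), just short of 2-fold over IA. EXPA8 gave 67.8 units at 2.5 h and 20.6 and 48.3 units at 1 h, where the IA signal was dim and the repetitions lay apart. TBL37, of a family that acetylates wall polysaccharides, gave 138.1 units at 2.5 h and 304.7 and 286.4 units at 1 h, and AT2G14900, a gibberellin-regulated protein, gave 72.2 units at 2.5 h and 148.1 and 160.3 units at 1 h. EXO, a cell wall-associated growth protein, gave 268.6 units at 2.5 h and 453.8 and 443.6 units at 1 h, a mean log2 difference of -0.74 ± 0.02 that did not reach 2-fold.

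The other lower genes with a name had mixed roles. AT5G12110, a beta subunit of translation elongation factor 1, was bright and gave 193.0 units at 2.5 h and 856.0 and 958.9 units at 1 h, a mean log2 difference of -2.23 ± 0.12 (limma adjusted p = 0.105). AT5G25450, a subunit of the mitochondrial cytochrome bc1 complex, gave 55.3 units at 2.5 h and 238.1 and 238.4 units at 1 h, and its repetitions coincided. AT5G57655, a xylose isomerase, gave 84.1 units at 2.5 h and 268.0 and 277.5 units at 1 h. In these 3 the gap between times was many times the gap between the repetitions, though the 2-fold rule that chose them favours a wide gap. The plastid gene atpA, the alpha subunit of the ATP synthase, gave 392.4 units at 2.5 h and 1071.9 and 1233.1 units at 1 h (-1.55 ± 0.14). It was the 1 member of the 69 bright plastid transcripts that was 2-fold below both 1 h arrays (0.469% of all bright probe sets were). The genes atpB (4389.5 units at 2.5 h and 4152.1 and 3877.8 units at 1 h) and atpE (3863.6 units at 2.5 h and 3610.1 and 3852.5 units at 1 h) of the same enzyme differed little. The other subunit genes had mean log2 differences above 0, which were 0.63 for atpF, 0.51 for atpH and 0.88 for atpI, each larger against IB than against IA. Other plastid transcripts set IB apart from both other arrays, as with ndhD at 2163.1 units at 2.5 h and 2692.4 (IA) and 42.5 (IB) units at 1 h.

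Several lower genes, named here after their values were seen, encode membrane proteins and transporters. AT1G69840, of the band 7 family of membrane scaffold proteins, gave 285.6 units at 2.5 h and 964.3 and 621.6 units at 1 h. AT3G56200, an amino acid transporter, gave 117.6 units at 2.5 h and 276.8 and 530.1 units at 1 h. AT1G08230, the gamma-aminobutyrate transporter GAT1, was dim at 2.5 h (23.5 units, against 68.3 and 48.4 units at 1 h) and at least 2.42-fold lower. In all 3 the 1 h arrays differed from each other, with IA above IB in some and below it in others. AT3G52470, related to the NHL proteins of defence, gave 154.7 units at 2.5 h and 345.1 and 405.3 units at 1 h, and AT5G14230, an ankyrin repeat protein, gave 23.4 units at 2.5 h and 73.6 and 63.0 units at 1 h, at least 2.86-fold lower. Over all 68 lower members the signal was dim at 2.5 h or on another array for 5 and bright on all 3 for 63.

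The higher side was smaller, and its 11 named genes came from different families. AT3G62550, a universal stress protein, gave 170.4 units at 2.5 h and 26.9 and 35.9 units at 1 h, a mean log2 difference of 2.46 ± 0.29 (5.48-fold higher; limma estimate 2.46 ± 0.43 SE, adjusted p = 0.105). AT4G36700, a cupin of the seed storage protein type, gave 173.9 units at 2.5 h and 39.7 and 26.5 units at 1 h (2.42 ± 0.41; limma adjusted p = 0.105). AT1G13650, of unknown function, gave 103.5 units at 2.5 h and 24.1 and 25.8 units at 1 h (2.05 ± 0.07). All 3 were within 2-fold of the 40th percentile at 1 h (22.1 units in IA and 20.6 units in IB) and far above it at 2.5 h (23.8 units).

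ATSPS4F, a sucrose-phosphate synthase that makes the precursor of sucrose, gave 591.4 units at 2.5 h and 259.5 and 202.8 units at 1 h (1.37 ± 0.25). AT1G70820, a phosphoglucomutase-like protein, gave 309.3 units at 2.5 h and 40.9 and 107.1 units at 1 h (2.22 ± 0.98), with repetitions more than 2-fold apart. Of the list of starch and sucrose genes, 0 of 6 bright members reached 2-fold over both 1 h arrays, and their median log2 difference was 0.255. That 0 lies near the share of 0.173% over all bright probe sets. Within that list DPE1, a plastid enzyme, gave 62.1 units at 2.5 h and 22.3 and 57.6 units at 1 h. PWD, a kinase of starch granules, gave 169.1 units at 2.5 h and 136.6 and 122.3 units at 1 h. SBE2.2, a starch branching enzyme, gave 591.4 units at 2.5 h and 523.6 and 430.7 units at 1 h.

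The remaining named higher genes ranged in signal at 2.5 h from 57.0 units for KICP-02 to 901.7 units for AT1G49500. AT5G48490, a lipid transfer protein related to DIR1 of systemic resistance, gave 713.0 units at 2.5 h and 192.8 and 206.9 units at 1 h (1.84 ± 0.07). AT1G49500, of unknown function, gave 901.7 units at 2.5 h and 278.3 and 367.3 units at 1 h (1.5 ± 0.28). CCL, a light-responsive transcript, gave 784.1 units at 2.5 h and 174.0 and 345.9 units at 1 h (1.68 ± 0.70). The first of these had nearly equal repetitions, while CCL had IB near the middle between IA and the 2.5 h signal on a log scale. CCS, the copper chaperone that loads superoxide dismutase, gave 326.0 units at 2.5 h and 157.9 and 147.5 units at 1 h (1.1 ± 0.07). KICP-02, a kinesin-like protein, gave 57.0 units at 2.5 h and 27.4 and 26.0 units at 1 h, and AT1G57590, a pectin acetylesterase of the cell wall, gave 155.2 units at 2.5 h and 47.0 and 77.0 units at 1 h.

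**Figure D3:**
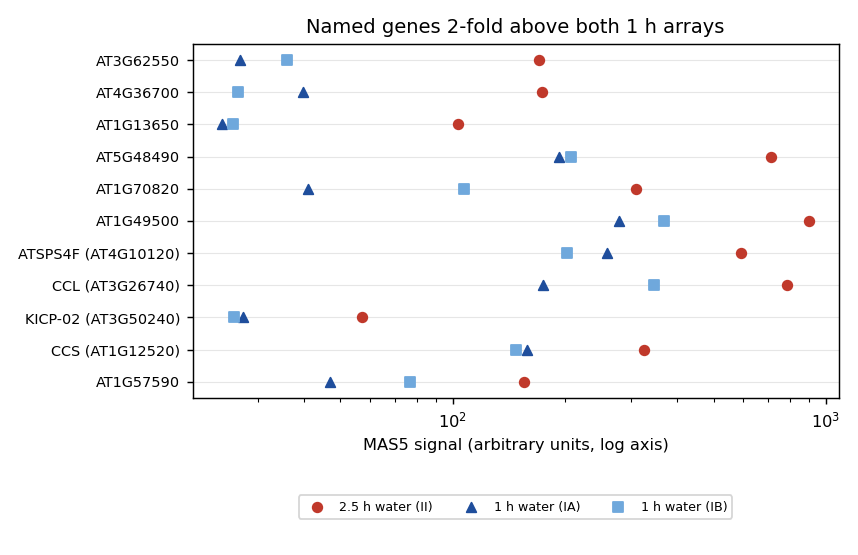
MAS5 signal on a log axis for the 11 named genes at least 2-fold above both 1 h arrays, with the 2.5 h water array (II) as red circles and the 1 h arrays IA (dark blue triangles) and IB (light blue squares). Every red circle lies right of both blue symbols, and the repetitions are farthest apart for AT1G70820 (40.9 units in IA and 107.1 units in IB).

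The 2-fold limit separated neighbours with nearly equal values. Just inside on the higher side, the smaller of the 2 log2 differences was 1.01 for AT1G57590, 1.05 for CCS, 1.06 for KICP-02 and 1.18 for CCL. Just outside, it was 0.99 for the plastid gene petL and for AT1G80850 and 0.97 for P1R1, while AT4G13800 fell short of 2-fold only in the digits lost by rounding to 1.0. On the lower side it was -1.01 for AT4G19430, AT3G50900 and AT4G30470 and -1.02 for AT1G08230 inside, and -0.99 for AT5G25440 and AT1G61890 and -0.98 for AT5G16200 and AT5G54300 outside.

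The arrays of Tween-treated leaves from the same 3 experiments, which played no part in choosing the members, were read for the same contrast. The treatment text of the Tween labels names water, against their titles, and the titles were followed here too. Among all bright probe sets of those arrays, 112 (0.77% of 14543) were at least 2-fold higher at 2.5 h than on both 1 h arrays and 123 (0.846% of 14543) were at least 2-fold lower. Of the 25 higher members, all 25 had a mean log2 difference above 0 in Tween-treated leaves (median 1.40) and 16 met the 2-fold rule. Of the 68 lower members, 67 had one below 0 (median -1.62) and 41 met the rule. The exception was XTH33. Each Tween array belongs to the same experiment as 1 of the water arrays, so this repeats the difference between experiment II and experiments IA and IB and does not set time apart from experiment.

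All 14 lower chaperone genes were below both 1 h Tween arrays, 12 of them by 2-fold. Their median log2 difference was -1.87 in Tween-treated leaves and -1.60 in water-sprayed leaves. Of the 54 other lower members, 51 were below both 1 h Tween arrays, 29 of them by 2-fold. Over all bright probe sets of the Tween arrays, 0.846% were 2-fold below both. A lower signal under Tween 20 was thus not particular to the chaperone genes. AT2G20560 gave 56.4 units at 2.5 h and 767.1 and 269.2 units at 1 h under Tween 20. AT1G54050 gave 104.4 units at 2.5 h and 1822.7 and 275.2 units at 1 h under Tween 20. The IA array exceeded the IB array for the 14 chaperone genes by a median log2 difference of 1.08 under Tween 20 and of 0.374 under water. For the 54 other lower members these medians were 0.256 and -0.139.

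The cell wall genes varied in how the Tween arrays compared with the water arrays. XTH19 met the 2-fold rule under Tween 20 as well, with 45.4 units at 2.5 h and 144.6 and 137.7 units at 1 h (mean log2 difference -1.64 under Tween 20 and -2.21 under water). AT1G57590, on the higher side, also met it (1.97 under Tween 20 and 1.37 under water). XTH18 gave 246.1 units at 2.5 h and 706.5 and 333.7 units at 1 h under Tween 20, so its 2.5 h signal there was lower than in IB by less than 2-fold. XTH33 gave 65.5 units at 2.5 h and 92.6 and 39.2 units at 1 h under Tween 20 (mean log2 difference 0.12), between the repetitions. EXLA1 gave 285.4 units at 2.5 h and 453.1 and 416.4 units at 1 h under Tween 20 (-0.61). The difference between the water and the Tween contrast was tested in limma on all 6 arrays, and 0 of 13648 probe sets passed after Benjamini-Hochberg adjustment (29 at an unadjusted p under 0.05, smallest adjusted p = 1). The estimate was -2.20 for XTH18, -1.87 for XTH33 and -0.85 for EXLA1. This fit took no account of each Tween array sharing its experiment with a water array. The difference between IA and IB therefore entered its error, and it cannot decide whether these genes differ between the sprays.

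**Figure D4:**
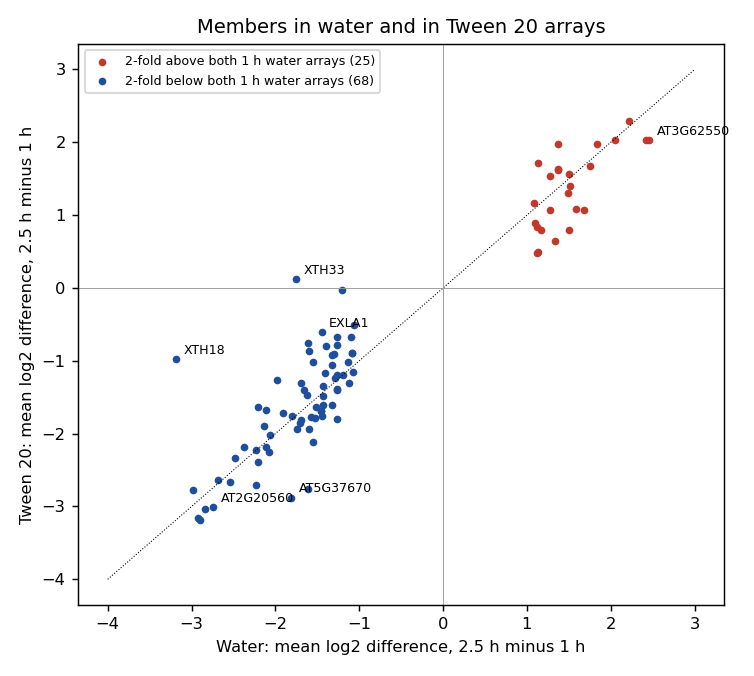
Mean log2 difference of 2.5 h minus 1 h in Tween 20 arrays (vertical axis) against that in water arrays (horizontal axis) for the 25 higher members (red) and the 68 lower members (blue), with a dotted line where both are equal. All red points and 67 of the 68 blue points have the same sign in both sprays, and XTH33, at -1.75 in water and 0.12 in Tween 20, lies above the horizontal zero line.

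No measured touch or rapid stress gene was among the members. Of 35 listed genes 10 were measured, 8 were bright, 0 were 2-fold above or below both 1 h arrays, and the median log2 difference was 0.0706. With 8 bright genes a count of 0 lies near the shares over all bright probe sets, 0.173% above and 0.469% below. STZ, a zinc finger repressor of stress responses, gave 134.0 units at 2.5 h and 73.0 and 100.3 units at 1 h. CML42, a calmodulin-like protein, gave 59.9 units at 2.5 h and 77.4 and 67.7 units at 1 h, and WRKY53, a transcription factor of leaf senescence, gave 63.0 units at 2.5 h and 67.7 and 58.0 units at 1 h. The other 25 entries, among them other touch genes, had no named probe set.

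Nuclear photosynthesis genes were among the brightest transcripts. All 10 measured members were bright, 9 of them above the 95th percentile on all 3 arrays, and the median log2 difference was 0.0105. Among them 0 were 2-fold above or below both 1 h arrays, near the shares of 0.173% and 0.469% over all bright probe sets. PSAE-1, a subunit of photosystem I, gave 3711.5 units at 2.5 h and 3522.4 and 3738.7 units at 1 h. LHCB4.1, an antenna protein of photosystem II, gave 3630.4 units at 2.5 h and 3360.8 and 4571.7 units at 1 h. Its homologue LHCB4.3 was the 1 member not above the 95th percentile on all 3 arrays. It gave 174.7 units at 2.5 h and 124.3 and 416.1 units at 1 h and so differed between the repetitions more than between the times.

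Clock genes could be read only in part. Of 28 listed genes 2 had a named probe set, GIGANTEA (GI), which gave 97.5 units at 2.5 h and 173.5 and 122.7 units at 1 h (-0.58 ± 0.35), and AT5G52660, the clock-related RVE6, which gave 73.3 units at 2.5 h and 68.8 and 49.9 units at 1 h (0.32 ± 0.33). COR27 and AT4G33980, its homologue COR28, both evening genes, were below the 40th percentile on all 3 arrays. With 2 measured genes, a shift in the time of day between the experiments was not tested.

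Other lists held no member either. Of all bright probe sets 0.173% were 2-fold above and 0.469% 2-fold below both 1 h arrays. In lists of 6 to 29 bright genes, a count of 0 lies near those shares. The WRKY family (6 bright, median log2 difference 0.116), UDP-glycosyltransferases (29 bright, 0.0837), cytochromes P450 (12 bright, 0.178), glutathione transferases (6 bright, -0.194) and SWEET sugar transporters (10 bright, 0.0932) each had 0 members 2-fold above or below both 1 h arrays. Among 4 bright genes of abscisate, cold and dehydration, COR47, a dehydrin, gave 347.1 units at 2.5 h and 548.5 and 750.7 units at 1 h (-0.89 ± 0.32) and COR15A, which protects plastid membranes in the cold, gave 253.6 units at 2.5 h and 185.1 and 296.2 units at 1 h. PDF1.2, the jasmonate-responsive defensin, gave 243.7 units at 2.5 h and 217.2 units in IA but 2127.4 units in IB, so that its difference lay between the repetitions and not between the times.

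**Figure D5:**
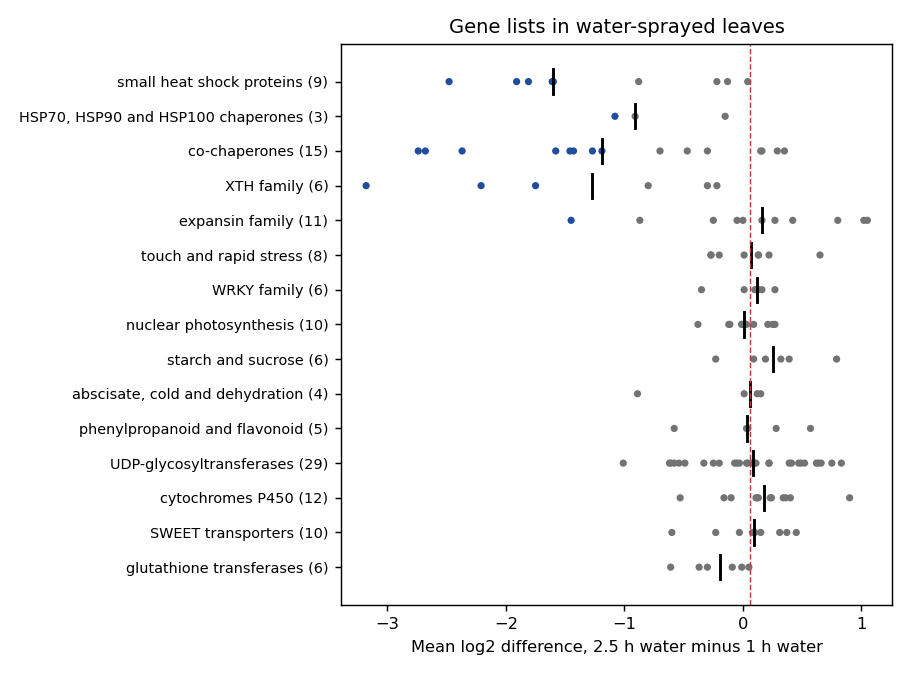
Mean log2 difference of 2.5 h minus 1 h in water-sprayed leaves for the bright members of 15 gene lists (number of members in parentheses), with members at least 2-fold below both 1 h arrays in blue, all others in grey, a black bar at each list's median and a red dashed line at the median of all bright probe sets (0.0606). The blue points lie in the 3 chaperone lists, which were written after values had been seen, and in the XTH and expansin families.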

How the data were processed

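Leaf RNA was measured on Affymetrix whole-genome arrays, and the 3 water arrays (2.5 h, and 1 h in experiments IA and IB) were compared. Per the submitters' processing notes the authors used MAS5, and they deposited probe set signal intensity values on a linear scale with version and settings not given in the sources used here. These intensities had trimmed means of 100.008 or 100.009 on every array, so a shift of most transcripts would not be seen, and they were used without further normalization. For 18 probe sets of spiked-in control RNA, the median log2 difference from IA was -0.563 at 2.5 h and -1.35 in IB. The cause of this difference was not tested. Signals of 0 were set to 0.1 before log2. Signals below the 40th percentile of their array (23.8 units at 2.5 h, 22.1 in IA and 20.6 in IB) were raised to it. This makes the folds of members with a dim signal lower bounds. Because the floors differ, other dim probe sets can gain a small difference that their signals do not have. The response regulator RR16 gave 20.0 units at 2.5 h and 23.2 and 23.7 units at 1 h, yet counted as above both. A member was at least 2-fold above, or below, both 1 h arrays. With 3 arrays, the number of arrays limits precision.

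Differences were tested in limma 3.58.1 (R 4.3.3, statmod 1.5.0) with a trend on intensity and Benjamini-Hochberg adjustment, on 13648 probe sets whose mean log2 signal reached its 40th percentile. The fit had 1 residual degree of freedom and a prior of 11.6. The script was tested on simulated data. Names came from the platform annotation, where 13513 probe sets had 1 gene (13436 matched to RefSeq of assembly TAIR10.1), 503 several and 8730 none. Of 421 list entries 62 had a named probe set. Named genes were up to 15 members per direction with the largest smaller fold, 4 per list by absolute mean difference, all measured clock genes and the 4 on each side of the limit, and others are named to complete a family or where stated. Members and lists were chosen with earlier results of these data known. No promoter or protein sequences were used here.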

Additional observations from a re-analysis of the deposited data

How the results depend on the processing

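The counts of members depended on the limit, the floor for dim signals and the number of 1 h arrays. The 25 higher and 68 lower probe sets became 318 and 294 at 1.5-fold and 4 and 18 at 3-fold. Without a floor they were 673 and 553. The higher count was 115 with the floor at the 20th percentile and 16 with it at the 60th. With only 1 of the 1 h arrays, the higher count ranged from 185 (without IB) to 452 (without IA) and the lower count from 164 to 524, since a single array then met the rule. Quantile normalization kept 21 of the 25 and 66 of the 68 (23 and 77 in all), and median centring kept 19 and 68 (19 and 88 in all). The 1015 probe sets 2-fold apart between IA and IB were 606 with the floor at the 60th percentile and 3945 without it.

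In limma 0 probe sets were higher under every setting run, and 0 were lower in all but the filter at the 60th percentile, where 6 of 9099 passed with a smallest adjusted p of 0.0451. Over all settings the smallest adjusted p ranged from 0.0451 to 1. With the experiment as a replicate block over all 6 arrays, 0 were higher and 0 lower (block correlation 0.658, taken from the deviations of IA and IB because the usual estimate gave no value). The contrast of water minus Tween had 0 calls with the experiment as a fixed block as well (343 at an unadjusted p under 0.05), a fit chosen after seeing the data. Of 565 values of the 113 named genes under alternatives 48 moved by more than the spread between the repetitions and 0 reversed a call. Of 105 list medians 9 moved.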

Other observations

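Probe sets without a single gene name, which have no gene or several in the annotation, made up 14 of the 25 higher and 27 of the 68 lower members. Of these, the member with the lowest mean log2 difference gave 48.9 units at 2.5 h and 528.2 and 281.3 units at 1 h, and under Tween 20 it gave 141.6 units at 2.5 h and 2199.1 and 422.3 units at 1 h. Another, with a limma adjusted p of 0.0782, gave 579.9 units at 2.5 h and 2994.5 and 2167.2 units at 1 h. The member of this kind with the highest mean log2 difference gave 1001.6 units at 2.5 h and 219.5 and 405.1 units at 1 h.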
